A study of Homo sapiens with 6 samples.

Results

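The transcripts described here are those of the mitosis, kinesin and tubulin genes: cyclins and their kinases, Polo, BUB and NEK kinases, the anaphase-promoting complex, centromere and kinetochore proteins, condensin, cohesin and topoisomerase II, kinesin motors, spindle proteins and the tubulins. They were chosen by gene symbol alone, by a fixed pattern of name stems such as KIF, CENP, CDC20, PLK, NCAP, TUBA, TUBB and TUBG. No measured value entered the pattern, but it was set with earlier results of these data known. The pattern found 119 of the 10191 transcripts in the table, from 115 of its 9717 genes. Among those without a row were CDK1, AURKA, AURKB, TTK, CENPA and CENPE, so the classes below are not complete. By their RefSeq identifiers 104 are coding and 15 are non-coding transcripts. Positions given below are those of RefSeq genes in GRCh38.p14, which matched 118 of the 119. The RNA came from Huh7, an established human hepatocellular carcinoma line, taken 1 week after puromycin selection. There were 2 groups of 3 libraries, made from cells carrying either a scrambled short hairpin RNA or a hairpin that targets ABL1, a non-receptor tyrosine kinase, with no other treatment named in the labels. Both groups had been selected with puromycin and grown in DMEM, and the comparison asks which RNAs differ when ABL1 is knocked down. The sources used here give neither the number and sequence of the hairpins nor whether the replicates were separate cultures or clones. The p-values therefore cover the spread among these libraries alone, which may be technical.

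As background, a cell enters mitosis when cyclin B binds its kinase. The chromosomes are then compacted by condensin, caught at their kinetochores by microtubules of alpha and beta tubulin, and moved by kinesins on a spindle nucleated by gamma tubulin. The spindle checkpoint holds back the anaphase-promoting complex, a ubiquitin ligase whose activator is CDC20, until each chromosome is attached. RNAs of many mitosis genes are made mainly in late G2 and M phase, so that in cultured cells their summed level is commonly read as a measure of how many cells are dividing. Other kinesins carry membranes, RNA or ciliary cargo along microtubules in cells that do not divide, and tubulin genes are also used outside mitosis. The liver is a tissue of mostly resting cells, whereas hepatoma lines divide in culture.

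Recovered reads ran from 6651413 to 10487862 per library. A normalized count is the read count after the authors' scale factor for the library. The authors' scaling left the normalized totals lower in the 3 knockdown libraries than in the 3 scrambled libraries, and scaling all 6 libraries to equal totals moved the median log2 change of all tested transcripts from 0.0018 to 0.18. As a check of the labels, the ABL1 transcript NM_007313 fell from 72.1 ± 1.09 to 11.1 ± 2.33 normalized counts and NM_005157 rose from 8.74 ± 1.84 to 20.5 ± 3.75 (SD, n = 3 each, as for every mean below). Hepatocyte markers, 6 of 10 with a row, summed to 461666 to 521005 normalized counts in scrambled and 395265 to 440553 in knockdown libraries. Of 5 tested, 3 were lower, ALB among them. AFP, the largest part of the sum, and TTR were not called (-0.10 and 0.19 on the log2 scale). The median log2 change of the 5 was -0.20, and -0.02 with equal totals. Fibroblast markers, 6 of 8 with a row, summed to 8912 to 9908 and 13259 to 14609, a sum made up mostly of COL1A2. Of the 6, 4 were higher, including COL1A2, PDGFRA and LUM, COL1A1 was lower (-1.03 on the log2 scale) and PDGFRB was not called. Endothelial markers, 4 of 5 with a row, summed to 176 to 204 and 126 to 147, with 3 lower and VWF higher. Immune markers, 3 of 6 with a row, summed to 5714 to 6331 and 6544 to 7489, nearly all of it LYZ, which was higher, while LAPTM5 and FCER1G were lower. No tested marker was at 0, and the part of these markers in the results below was not tested.

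Of the 119 transcripts, 101 had a mean of at least 10 normalized counts and entered the test, which was limma on log2(normalized count + 1) with p-values adjusted over all 8600 transcripts (Benjamini-Hochberg). In what follows, "fell", "rose" and "called" mean an adjusted p under 0.05. A log2 change is the knockdown mean minus the scrambled mean on that scale, and it understates changes where reads are few. With the ABL1 hairpin 37 of the 101 fell, 15 rose and 49 were not called. That is 36.6% lower, where 27.4% of all tested transcripts were lower, and 14.9% higher, where 24.5% of all were higher. A fall of 2-fold or more was called for 11 of the 101, beside 9.02% of all transcripts tested. The knockdown libraries lay wholly below the scrambled ones for 46 of the 101, beside 30.7% of all 8600 transcripts. They lay wholly above them for 20 of the 101, beside 28.2% of all 8600. In bulk RNA, fewer dividing cells and less RNA per dividing cell cannot be told apart.

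Falls and rises were unevenly spread over what the pattern had caught. Among the 86 tested coding transcripts with a role in these processes 37 fell (43%) and 9 rose (10.5%), with a median log2 change of -0.26. The other 15 were non-coding transcripts, pseudogenes and coding transcripts outside these roles, and of these 0 fell and 6 rose. That class was set after it was seen which rows the pattern had caught, so the shares among the 86 depend on it. With equal totals 31 of the 86 fell and 19 rose. The median over all 101 was -0.15, and it was 0.016 with equal totals, so its sign depends on the scale. With equal totals 31 fell and 26 rose, and with quantile normalization 38 fell and 22 rose. Of the 37 falls 30, and of the 15 rises 13, kept their call in every alternative other than the stricter threshold of 0.01, and the rise of AURKAPS1 is counted as not kept because its mean is under the stricter filter of 30. Calls were more frequent where reads were many: among the 72 transcripts with a mean of at least 100 normalized counts 32 fell and 11 rose, with a median standard error of 0.086, and among the 29 below it 5 fell and 4 rose, with a median standard error of 0.31. Each row is a single RefSeq transcript. Genes with 1 RefSeq transcript had a median of 1221 normalized counts and 28 falls among 50 tested, and genes with more had a median of 43.2 and 9 falls among 36. For neither split was the share of all transcripts computed. With the stricter filter of 30, 31.6% of all transcripts were lower and 26.4% higher, so calls were also more frequent there.

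**Figure D1:**
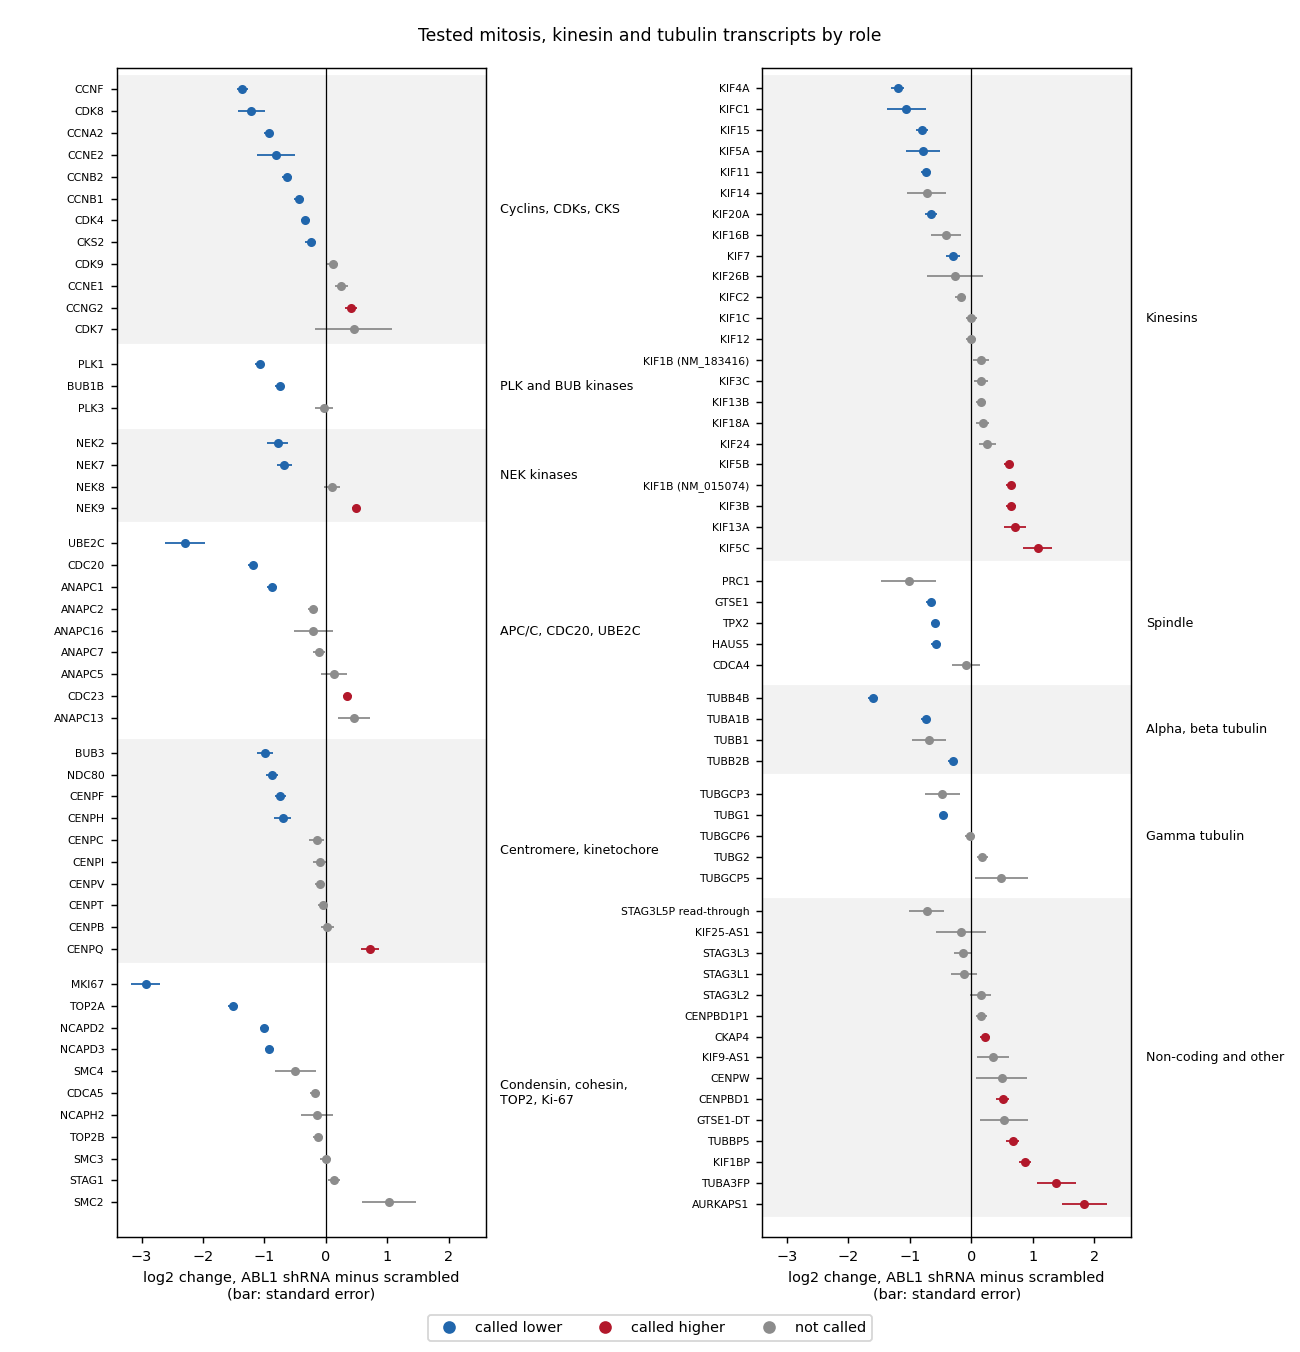
Log2 change (ABL1 shRNA minus scrambled, 3 libraries each) of the 101 tested transcripts on the horizontal axis, grouped by role, with bars for the standard error. Blue points are the 37 called lower, red the 15 called higher and grey the 49 not called. Red are 5 of 23 kinesins (21.7%) and 6 of 15 non-coding and other transcripts (40%), beside 24.5% of all tested transcripts. With equal totals 26 would be called higher.

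Promoters are shown here because many of the genes that fell carry the same short element near their start. The cell cycle genes homology region, or CHR, is a short element in promoters of genes expressed late in the cell cycle, and it is known to bind the MuvB complexes. The CCAAT box binds the factor NF-Y. Only the 86 tested coding transcripts with a role were searched, and the 15 non-coding and other transcripts were left out. Promoter windows of RefSeq (GRCh38.p14) ran from 250 bases before to 50 after the gene start. They matched 30 of the 37 transcripts that fell, 9 of the 9 that rose and 36 of the 40 not called. The letters TTTGAA, searched on both strands, were in 18 of the 30 windows of genes that fell (60%), 9 of 36 not called (25%) and 1 of 9 that rose (11.11%), against 15.16% of all 35116 windows. Within the last 100 bases before the start the counts were 12 of 30 (40%), 5 of 36 (13.89%) and 0 of 9, against 4.87% of all windows. CCAAT, also on both strands, was in 20 of 30 (66.67%), 12 of 36 (33.33%) and 5 of 9 (55.56%), against 34.61% of all. The CHR, in either form, and CCAAT together were in 14 of 30 (46.67%), 6 of 36 (16.67%) and 1 of 9 (11.11%), against 6.38% of all. CACGTG, the E-box of MYC, was in 5 of 30 (16.67%), 3 of 36 (8.33%) and 1 of 9 (11.11%), against 7.26% of all windows. Of the other CHR form searched, TTCGAA, 2 of 30 windows held a copy, and each of those also held TTTGAA. No further form of the CHR was searched, so a window without these letters is not shown to lack the element. The 35116 windows include genes not tested here, and no share over all tested genes was computed. A match of letters is a description of the window and not a shown binding site.

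Below are the 110 bases before the start of 6 genes that fell and 2 that rose, read 5′ to 3′ on the gene's own strand. The 6 were picked because they hold both elements near the start, and the 2 because they lack both searched forms of the CHR. These stretches are thus examples and not a sample of either group. CCNA2, CCNB1 and KIF20A fell and hold CCAAT but neither TTTGAA nor TTCGAA in the window, and KIF5B rose and holds CCAAT and TTTGAA. Capitals mark the CHR in either form, the CCAAT box and the E-box, read on either strand, so that TTCAAA and ATTGG are the same elements on the opposite strand. The windows are chr16:23678779-23678888 (plus) for PLK1, chr15:59105036-59105145 (plus) for CCNB2, chr1:43358871-43358980 (plus) for CDC20, chrX:70289994-70290103 (plus) for KIF4A, chr10:92593020-92593129 (plus) for KIF11, chr10:128126424-128126533 (minus) for MKI67, chr20:32277541-32277650 (plus) for KIF3B and chr5:138213324-138213433 (minus) for CDC23. The first 6 belong to genes that fell:
PLK1: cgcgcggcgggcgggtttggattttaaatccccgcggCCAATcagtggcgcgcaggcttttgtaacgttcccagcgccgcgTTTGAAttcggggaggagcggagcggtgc
CCNB2: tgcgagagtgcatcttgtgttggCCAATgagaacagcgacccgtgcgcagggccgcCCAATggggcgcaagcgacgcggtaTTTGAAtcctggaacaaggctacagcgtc
CDC20: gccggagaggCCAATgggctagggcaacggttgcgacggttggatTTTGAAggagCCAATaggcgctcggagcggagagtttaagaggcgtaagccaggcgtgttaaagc
KIF4A: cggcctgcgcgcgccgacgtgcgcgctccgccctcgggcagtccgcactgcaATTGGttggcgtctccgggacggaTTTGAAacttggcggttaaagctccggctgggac
KIF11: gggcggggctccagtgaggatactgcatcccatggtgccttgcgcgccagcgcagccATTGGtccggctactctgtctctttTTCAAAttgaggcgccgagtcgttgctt
MKI67: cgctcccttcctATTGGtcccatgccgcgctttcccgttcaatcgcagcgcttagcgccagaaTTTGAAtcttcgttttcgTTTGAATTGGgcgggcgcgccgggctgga
The next 2 belong to genes that rose and hold CCAAT but neither searched form of the CHR:
KIF3B: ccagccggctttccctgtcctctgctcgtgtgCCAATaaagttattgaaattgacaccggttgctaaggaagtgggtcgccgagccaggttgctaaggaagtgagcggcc
CDC23: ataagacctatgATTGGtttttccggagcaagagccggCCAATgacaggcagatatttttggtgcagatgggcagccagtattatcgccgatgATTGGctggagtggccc
Counted from the gene start, a CHR begins at -29 in PLK1, CCNB2 and MKI67, at -28 in KIF11, at -34 in KIF4A and at -65 in CDC20. The nearest CCAAT box before it begins 25 bases farther out in CCNB2 and KIF11, 24 in KIF4A, 35 in CDC20 and 44 in PLK1. MKI67 holds a further CHR at -47, and its last capital run joins a CHR to an overlapping CCAAT box on the other strand.

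**Figure D2:**
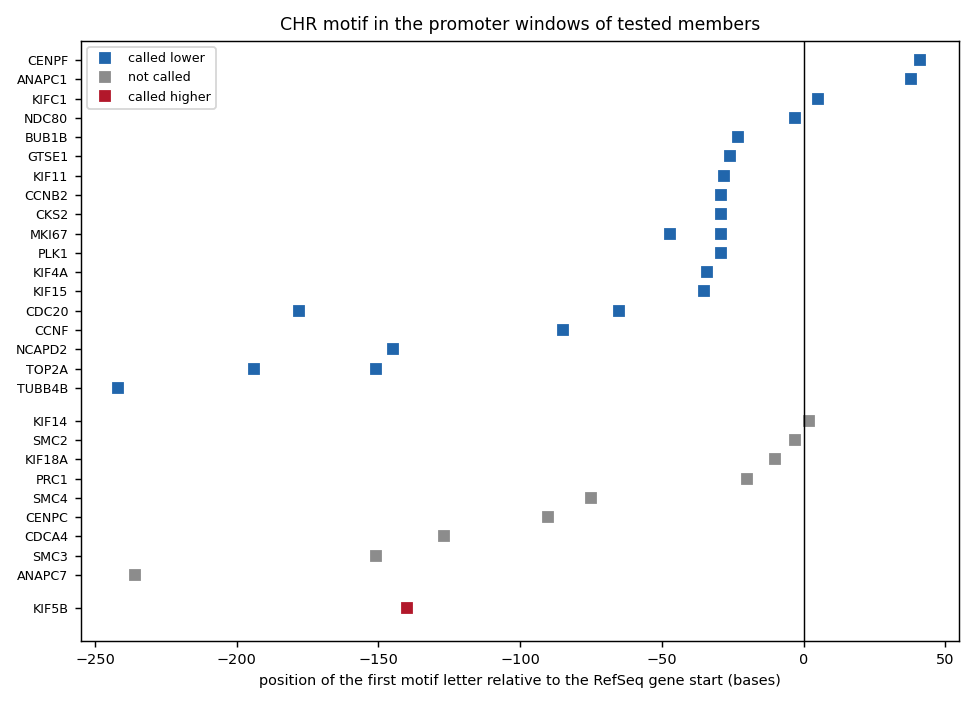
Position of TTTGAA, on either strand, in the promoter windows of tested coding genes with a role. The horizontal axis is the distance of the element's first letter from the RefSeq gene start in bases, and each row is a gene. The 18 genes that fell (blue) include 9 with a copy between -35 and -23, and the single gene that rose (red, KIF5B) has its copy at -140.

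Cyclins, cyclin-dependent kinases and CKS2 gave 12 tested transcripts, of which 8 fell and 1 rose. Their median log2 change was -0.39, and -0.21 with equal totals, when 5 fell and 3 rose. CCNF, the F-box subunit of a ubiquitin ligase that removes its targets in G2 (NM_001761, chromosome 16, 2429447 to 2458854, plus strand), had normalized counts of 1584, 1463 and 1497 with the scrambled hairpin and of 636, 540.3 and 595 with the ABL1 hairpin. All 3 knockdown values lay below all 3 scrambled values, and the means went from 1514 ± 62.7 to 590.4 ± 47.95 normalized counts (log2 change -1.36, SE 0.086, limma adjusted p = 9.51e-08). CCNA2 encodes cyclin A2, which drives S phase and entry into mitosis, and had scrambled values of 1792, 1739 and 1667 and knockdown values of 894, 921 and 913 (log2 change -0.93, SE 0.073, limma adjusted p = 5.92e-07). The mitotic cyclins, which bind CDK1, fell as well. CCNB2 (NM_004701, chromosome 15, 59105146 to 59125045, plus strand) had scrambled values of 1016, 1172 and 1098 and knockdown values of 743, 701 and 673 (log2 change -0.63, SE 0.086, limma adjusted p = 5.60e-05), and CCNB1 had scrambled values of 2847, 3098 and 2661 and knockdown values of 2083, 2152 and 2103 (log2 change -0.44, SE 0.075, limma adjusted p = 0.000361). The groups were apart for both. CDK8, the kinase of the Mediator complex and not a mitotic kinase, had scrambled values of 162, 213 and 237 and knockdown values of 123, 76.9 and 67.1 (log2 change -1.22, SE 0.22, limma adjusted p = 0.000520), and here the knockdown libraries themselves spread widely, from 67.1 to 123.

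CDK4, the kinase that cyclin D activates in G1, had scrambled values of 3847, 4010.2 and 3638 and knockdown values of 3154, 2975 and 2974 (log2 change -0.34, SE 0.070, limma adjusted p = 0.00151), and its call ended with equal totals (-0.16, limma adjusted p = 0.0568). CKS2, a small subunit bound to cyclin-dependent kinases, changed by -0.25 (limma adjusted p = 0.0283), and the call ended with equal totals (-0.08, limma adjusted p = 0.485), without scrambled replicate 2 (limma adjusted p = 0.125) and without knockdown replicates 1 (0.0899) or 3 (0.0568). CCNE2, the less abundant cyclin E, had only scrambled values of 43.4, 30.3 and 45.04 and knockdown values of 29.3, 14.7 and 23.7 (log2 change -0.81, SE 0.31, limma adjusted p = 0.0420). That call was lost without scrambled replicates 1 (limma adjusted p = 0.117) or 3 (0.138) and without knockdown replicates 2 (0.155) or 3 (0.0563). CCNG2, an unusual cyclin linked to cell cycle arrest, was the only one called higher in the deposited scaling, with scrambled values of 878, 759.9 and 928 and knockdown values of 1083, 1289 and 1039 (log2 change 0.41, SE 0.10, limma adjusted p = 0.00532). CCNE1, cyclin E1 of the G1/S transition, had scrambled values of 328, 341 and 279.6 and knockdown values of 364, 368 and 391. Its groups did not overlap, but it was not called (log2 change 0.25, SE 0.11, limma adjusted p = 0.0720), and it was with equal totals (0.42, limma adjusted p = 0.00540). CDK9, the kinase of transcription elongation, was not called (log2 change 0.11, SE 0.083, limma adjusted p = 0.301), and with equal totals it was (0.28, limma adjusted p = 0.00913).

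CDK7, the kinase that activates other cyclin-dependent kinases, showed a pattern of libraries that did not follow the groups. It had scrambled values of 180.1, 32.5 and 37.5 and knockdown values of 30.3, 156 and 121. Scrambled replicate 1 and knockdown replicates 2 and 3 were several times above the other libraries, and the test gave log2 change 0.45, SE 0.62, limma adjusted p = 0.572. The gene has 10 RefSeq transcripts, of which this row is a single one.

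The Polo-like kinase PLK1, which drives spindle assembly and helps to activate the anaphase-promoting complex, and BUB1B, the checkpoint protein BubR1, both fell. PLK1 (NM_005030, chromosome 16, 23678889 to 23690367, plus strand) had normalized counts of 2858, 2818 and 2709.7 with the scrambled hairpin and of 1401, 1229 and 1339 with the ABL1 hairpin. No knockdown library came near a scrambled one, and the knockdown mean was 47.3% of the scrambled mean (log2 change -1.08, SE 0.075, limma adjusted p = 2.17e-07). BUB1B (NM_001211, chromosome 15, 40161069 to 40221123, plus strand) had scrambled values of 907, 966 and 941 and knockdown values of 553, 543 and 571 (log2 change -0.76, SE 0.081, limma adjusted p = 7.12e-06), with the groups well apart. PLK3, a stress-response relative of PLK1, had scrambled values of 141, 141 and 134 and knockdown values of 122, 127 and 159.9 and was not called (log2 change -0.04, SE 0.15, limma adjusted p = 0.857). Of the NEK kinases, relatives of a fungal mitosis kinase, 2 of 4 tested fell and 1 rose. NEK2, which splits the centrosomes at mitotic entry, had scrambled values of 164, 187 and 167 and knockdown values of 84.1, 128 and 92.8 (log2 change -0.78, SE 0.17, limma adjusted p = 0.00202). NEK7, which also has a part in the inflammasome, had scrambled values of 557, 566 and 702 and knockdown values of 369.7, 424 and 346 (log2 change -0.68, SE 0.12, limma adjusted p = 0.000372). NEK9, the kinase upstream of NEK7 in centrosome separation, went the other way, with scrambled values of 1582, 1611 and 1526 and knockdown values of 2155, 2216 and 2242 (log2 change 0.49, SE 0.069, limma adjusted p = 8.43e-05), and its groups did not overlap. NEK8, a kinase of the cilium, was not called (log2 change 0.10, SE 0.13, limma adjusted p = 0.540).

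The anaphase-promoting complex, its activator and its ubiquitin-conjugating enzyme gave 9 tested transcripts. Of these 3 fell (33.3%, beside 27.4% of all tested) and 1 rose (11.1%, beside 24.5%). The median of the class was -0.21, or -0.04 with equal totals. CDC20, the mitotic activator (NM_001255, chromosome 1, 43358981 to 43363203, plus strand), had normalized counts of 3552, 3487 and 3208 with the scrambled hairpin and of 1557, 1455 and 1478 with the ABL1 hairpin. Its means went from 3415 ± 183 to 1497 ± 53.7 normalized counts, with no overlap (log2 change -1.19, SE 0.073, limma adjusted p = 7.90e-08). UBE2C, the enzyme that starts ubiquitin chains on the complex's substrates, was measured through the low transcript NM_181801, with scrambled values of 45.02, 71.7 and 52.5 and knockdown values of 6.85, 14.7 and 11.3 (log2 change -2.29, SE 0.33, limma adjusted p = 9.17e-05). ANAPC1, the largest scaffold subunit, had scrambled values of 1502, 1559 and 1451 and knockdown values of 792, 870.3 and 787 (log2 change -0.88, SE 0.079, limma adjusted p = 1.59e-06). The other subunits gave other calls. CDC23, another scaffold subunit (NM_004661, chromosome 5, 138187650 to 138213323, minus strand), rose, with scrambled values of 1019, 1084 and 1109 and knockdown values of 1367, 1418 and 1299 (log2 change 0.35, SE 0.077, limma adjusted p = 0.00235). ANAPC2, the cullin subunit, had scrambled values of 1906, 1672 and 1773 and knockdown values of 1558, 1411 and 1654, groups that did not overlap and an adjusted p at the threshold (log2 change -0.21, SE 0.084, limma adjusted p = 0.05002), and it was called lower without scrambled replicate 2 (limma adjusted p = 0.0354) and without knockdown replicate 3 (0.0289). ANAPC7, ANAPC5, ANAPC13 and ANAPC16 had log2 changes from -0.21 to 0.45 and were not called.

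Of 10 tested centromere and kinetochore transcripts 4 fell (40%, beside 27.4% of all tested) and 1 rose (10%, beside 24.5%). Their median was -0.13, and 0.047 with equal totals, so no direction is given for the class. NDC80, part of the complex that grips microtubules (NM_006101), had normalized counts of 563, 641 and 595 with the scrambled hairpin and of 340.4, 342 and 296 with the ABL1 hairpin. Every knockdown value was below every scrambled value (log2 change -0.88, SE 0.10, limma adjusted p = 1.39e-05). CENPF, a protein of the outer kinetochore made in G2 and M (chromosome 1, 214603195 to 214664571, plus strand), had scrambled values of 1632, 1977 and 1705 and knockdown values of 1052, 1095 and 1024 (log2 change -0.74, SE 0.086, limma adjusted p = 1.49e-05). BUB3, the partner of the BUB1 checkpoint kinases, had scrambled values of 260.1, 295 and 274 and knockdown values of 130.1, 159 and 126 (log2 change -0.998, SE 0.13, limma adjusted p = 4.53e-05). CENPH and CENPQ belong to the same constitutive network at the inner centromere and were called in opposite directions. CENPH had scrambled values of 335, 407 and 403 and knockdown values of 260.2, 248 and 195 (log2 change -0.71, SE 0.13, limma adjusted p = 0.000713), whereas CENPQ had scrambled values of 132, 146 and 142 and knockdown values of 223, 283 and 194 (log2 change 0.72, SE 0.15, limma adjusted p = 0.00150). Neither pair of groups overlapped. The remaining 5 (CENPB, CENPC, CENPI, CENPT and CENPV) had log2 changes from -0.15 to 0.02 and were not called. CENPB, which binds centromeric DNA, went from 2922 ± 405 to 2967 ± 355 normalized counts, and CENPV from 2045 ± 211 to 1913 ± 42.7 normalized counts.

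Among chromosome proteins the calls differed from gene to gene. Of 11 tested transcripts 4 fell (36.4%, beside 27.4% of all tested). By limma or voom 0 rose, where limma called 24.5% of all tested higher. At an unadjusted p under 0.05 there was 1 higher (SMC2), and 2 were called higher with equal totals (SMC2 and STAG1). TOP2A, the topoisomerase II of dividing cells (NM_001067, chromosome 17, 40388525 to 40417896, minus strand), had normalized counts of 8723, 9875 and 9224 with the scrambled hairpin and of 3212, 3632 and 2940.2 with the ABL1 hairpin. The means went from 9274 ± 578 to 3261 ± 348 normalized counts, or 35.2% of the scrambled level (log2 change -1.51, SE 0.086, limma adjusted p = 4.27e-08). TOP2B, the form also found in resting cells, had scrambled values of 2584, 2771 and 2954 and knockdown values of 2499, 2751 and 2326, with overlapping groups (log2 change -0.13, SE 0.083, limma adjusted p = 0.194). The ratio of TOP2A to TOP2B counts within a library, which does not depend on the scaling between libraries, was 3.38, 3.56 and 3.12 with the scrambled and 1.29, 1.32 and 1.26 with the ABL1 hairpin. This and the other ratios below were formed after the values had been seen, are not corrected for length and carry no test.

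MKI67 encodes Ki-67, the coat protein of mitotic chromosomes by which dividing cells are counted in pathology. Its row NM_002417 (chromosome 10, 128096659 to 128126423, minus strand) had normalized counts of 99.2, 101 and 102 with the scrambled hairpin and of 13.7, 10.2 and 13.4 with the ABL1 hairpin. The knockdown mean was 12.3% of the scrambled mean, the largest fall among the 101 tested (log2 change -2.93, SE 0.24, limma adjusted p = 6.66e-07). The knockdown libraries held only 9 to 14 reads each, so the size of the fall rests on few reads. MKI67 has 2 RefSeq transcripts, of which this row is a single one. Of condensin, which folds chromosomes, a subunit of each form fell and 3 other subunits were not called. NCAPD2, of condensin I, had scrambled values of 7597, 7658 and 6606 and knockdown values of 3741, 3618 and 3513 (log2 change -1.005, SE 0.076, limma adjusted p = 3.91e-07), and NCAPD3, of condensin II, had scrambled values of 1453, 1547 and 1512 and knockdown values of 792, 769.7 and 819 (log2 change -0.92, SE 0.075, limma adjusted p = 7.70e-07). SMC3, the core of the cohesin ring that holds sister chromatids together, was about level, with scrambled values of 2464, 2633 and 2515 and knockdown values of 2424, 2882 and 2316 (log2 change -0.0038, SE 0.087, limma adjusted p = 0.974). The ratio of NCAPD2 to SMC3 counts was 2.63 to 3.08 with the scrambled and 1.26 to 1.54 with the ABL1 hairpin. SMC2 and SMC4, the core pair of condensin, were measured through rows with few reads: SMC2 had scrambled values of 5.002, 5.60 and 10.3 and knockdown values of 17.6, 16.95 and 10.3 (log2 change 1.02, SE 0.44, limma adjusted p = 0.0664), and SMC4 gave log2 change -0.50, SE 0.33, limma adjusted p = 0.227. NCAPH2, another subunit of condensin II, also had few reads, with scrambled values of 34.2, 29.1 and 39.4 and knockdown values of 24.5, 35.04 and 33.01 and overlapping groups (log2 change -0.15, SE 0.26, limma adjusted p = 0.652). SMC2 was called higher without scrambled replicate 3 (1.31, limma adjusted p = 0.0430). CDCA5, the protector of cohesion, and STAG1, a cohesin subunit, were not called (-0.18 and 0.12).

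The kinesins gave 23 tested transcripts. Of these 7 fell (30.4%, beside 27.4% of all tested), 5 rose (21.7%, beside 24.5%) and 11 were not called. Their median log2 change was 0.0017, and 0.18 with equal totals, which is close to the median of all transcripts in either scaling. Listed by known function, 5 of 7 tested mitotic kinesins fell and 0 rose by limma or voom, or at an unadjusted p under 0.05 (median -0.74). Of 14 tested kinesins of transport and cilia 2 fell and 5 rose (median 0.08). With equal totals 10 of the 23 rose, adding KIF18A, KIF3C, KIF13B, KIF24 and the second KIF1B row, and none of the transport kinesins was called lower. The 2 lists were drawn up with earlier results of these data known, and the difference between them was not tested.

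**Figure D3:**
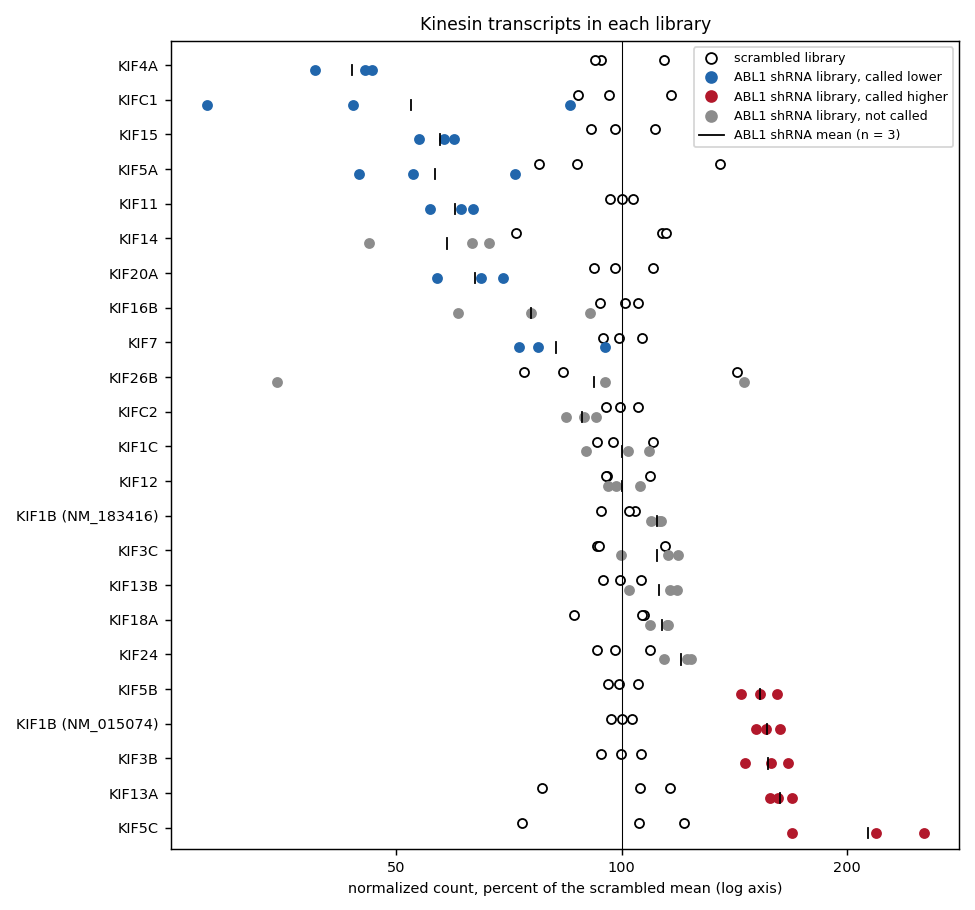
Normalized counts of the 23 tested kinesin transcripts in each library, as percent of the scrambled mean of the same transcript on a log axis. Open circles are the 3 scrambled libraries, filled circles the 3 knockdown libraries coloured by call, and black ticks the knockdown means. KIF4A, at 43.6% of its scrambled mean, and KIF5C, at 213%, mark the ends, and KIF7 is the only called kinesin whose groups overlap.

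KIF4A, the chromokinesin that shapes mitotic chromosomes and the central spindle (NM_012310, chromosome X, 70290104 to 70420886, plus strand), had normalized counts of 1162, 1411 and 1139 with the scrambled hairpin and of 574, 563 and 482 with the ABL1 hairpin. The groups were far apart, with a knockdown mean at 43.6% of the scrambled mean (log2 change -1.19, SE 0.10, limma adjusted p = 1.37e-06). KIF11, the motor Eg5 that pushes spindle poles apart (chromosome 10, 92593130 to 92655395, plus strand), had scrambled values of 1036, 1070.4 and 997 and knockdown values of 631, 656 and 575 (log2 change -0.74, SE 0.085, limma adjusted p = 1.33e-05). KIF15, which can back up KIF11 on the spindle, had scrambled values of 641, 780.1 and 689.6 and knockdown values of 421, 408 and 378 (log2 change -0.80, SE 0.10, limma adjusted p = 2.63e-05). KIF20A, the cytokinesis motor MKLP2 (chromosome 5, 138179112 to 138187723, plus strand), had scrambled values of 1467, 1652 and 1375 and knockdown values of 1039.8, 971 and 849 (log2 change -0.65, SE 0.097, limma adjusted p = 0.000118). For each of these 4 the groups were apart. KIFC1, the minus-end motor that bundles spindle poles, had scrambled values of 81.7, 98.6 and 74.1 and knockdown values of 72.4, 23.7 and 37.1 (log2 change -1.05, SE 0.32, limma adjusted p = 0.0157), and its knockdown libraries spread widely. Its call was lost without scrambled replicate 2 (limma adjusted p = 0.0519) and without knockdown replicate 2 (-0.69, limma adjusted p = 0.0588). KIF14, a cytokinesis kinesin, had scrambled values of 33.3, 21.3 and 33.8 and knockdown values of 18.6, 13.6 and 19.6 and was not called (log2 change -0.73, SE 0.31, limma adjusted p = 0.0681), and it was without scrambled replicate 2 (limma adjusted p = 0.0345). KIF18A, which dampens chromosome oscillations, was not called, with scrambled values of 340.2, 423 and 419 and knockdown values of 455, 453 and 430.2 (log2 change 0.19, SE 0.11, limma adjusted p = 0.169).

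The 5 rises were of transport motors. KIF5B, the heavy chain of conventional kinesin found in most cells (NM_004521, chromosome 10, 32009015 to 32056425, minus strand), had normalized counts of 2831, 2737 and 3003 with the scrambled hairpin and of 4374, 4606 and 4118 with the ABL1 hairpin. All knockdown values were above all scrambled values (log2 change 0.61, SE 0.073, limma adjusted p = 1.84e-05). Within a library the ratio of KIF11 to KIF5B counts was 0.332 to 0.391 with the scrambled and 0.140 to 0.144 with the ABL1 hairpin. KIF5C, a form best known from neurons, had scrambled values of 43.4, 30.3 and 49.7 and knockdown values of 69.5, 104 and 89.8 (log2 change 1.08, SE 0.24, limma adjusted p = 0.00205). KIF5A, the other neuronal form, was called lower at a similarly low level, with scrambled values of 74.2, 42.6 and 47.9 and knockdown values of 24.5, 39.6 and 28.9 (log2 change -0.79, SE 0.28, limma adjusted p = 0.0292). That fall was lost with equal totals (limma adjusted p = 0.0766), without scrambled replicate 1 (0.143) and without knockdown replicates 1 (0.0915) or 3 (0.0622). KIF3B, a subunit of the kinesin-2 motor of cilia (chromosome 20, 32277651 to 32335011, plus strand), had scrambled values of 1821, 1940.1 and 1716 and knockdown values of 3045, 2891 and 2664 (log2 change 0.65, SE 0.079, limma adjusted p = 2.13e-05). KIF13A, which moves endosomes, had scrambled values of 58.4, 86.3 and 78.8 and knockdown values of 120.3, 118 and 126 (log2 change 0.71, SE 0.18, limma adjusted p = 0.00498).

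KIF1B, a motor of vesicles and mitochondria, had 2 tested rows. The row NM_015074 had scrambled values of 1443, 1535 and 1489 and knockdown values of 2317, 2249 and 2423 (log2 change 0.65, SE 0.071, limma adjusted p = 9.43e-06), and the row NM_183416 had scrambled values of 134, 149 and 146 and knockdown values of 160.4, 162 and 157 (log2 change 0.16, SE 0.13, limma adjusted p = 0.327). Reads from exons that the 2 transcripts share cannot be told apart, and the rule by which they were assigned is unknown here. KIF7, a regulator of Hedgehog signalling at the cilium tip, was the only called transcript of the 37 falls whose groups overlapped, with scrambled values of 595, 555 and 529 and knockdown values of 432, 408 and 532 (log2 change -0.30, SE 0.11, limma adjusted p = 0.0390). Its call ended with equal totals (-0.12, limma adjusted p = 0.350) and when any library other than knockdown replicate 3 was left out (limma adjusted p = 0.0550 to 0.136). KIF1C and KIF12 had group means that differed by less than the spread between replicates. KIF1C, a motor of Golgi and adhesion traffic, went from 11198 ± 1005 to 11218 ± 1085 normalized counts, and KIF12, a kinesin of epithelia, from 1944 ± 153 to 1946 ± 100.3 normalized counts. KIF1C was called higher with quantile normalization (0.26, limma adjusted p = 0.0154). KIF13B, a close relative of KIF13A, had a log2 change of 0.17 and was not called (limma adjusted p = 0.107), and it was called higher without knockdown replicate 2 (limma adjusted p = 0.0340).

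Spindle proteins had 5 tested transcripts, of which 3 fell and 0 rose by limma or voom, or at an unadjusted p under 0.05, with a median of -0.59. TPX2, which activates Aurora A and nucleates microtubules near chromosomes, had normalized counts of 5841, 6326 and 5796 with the scrambled hairpin and of 4046, 3968 and 3945 with the ABL1 hairpin. The groups were well apart (log2 change -0.59, SE 0.068, limma adjusted p = 1.40e-05). GTSE1, a microtubule protein that stabilises the spindle in M phase (chromosome 22, 46296870 to 46330810, plus strand), had scrambled values of 1720.0, 1828 and 1755 and knockdown values of 1127, 1041 and 1193 (log2 change -0.66, SE 0.078, limma adjusted p = 1.79e-05), and HAUS5, of the augmin complex that branches spindle microtubules, scrambled values of 1557, 1560.2 and 1481 and knockdown values of 993, 963 and 1133 (log2 change -0.58, SE 0.083, limma adjusted p = 9.14e-05). PRC1, the bundler of the central spindle, was measured through a row with few reads, with scrambled values of 16.7, 23.5 and 8.44 and knockdown values of 5.87, 6.78 and 8.25, and was not called (log2 change -1.02, SE 0.45, limma adjusted p = 0.0751). It was called lower without scrambled replicate 3 (-1.40, limma adjusted p = 0.0267). CDCA4 was not called (-0.08).

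Of 4 tested alpha and beta tubulin transcripts 3 fell, and 0 rose by limma or voom, or at an unadjusted p under 0.05. Per kilobase of transcript, TUBB4B stood at 10480 normalized counts in the scrambled and 3467 in the knockdown group, and TUBA1B at 8451 and 5039, so that TUBB4B was above TUBA1B per length in the scrambled group and below it in the knockdown group. TUBB4B, a beta tubulin made in most tissues (NM_006088, chromosome 9, 137241287 to 137243707, plus strand), had normalized counts of 18257, 17385 and 15827 with the scrambled hairpin and of 6043, 5286 and 5695 with the ABL1 hairpin. The means went from 17156 ± 1231 to 5675 ± 379 normalized counts, or 33.1% of the scrambled level (log2 change -1.60, SE 0.079, limma adjusted p = 1.50e-08). TUBA1B, an alpha tubulin made in most cells (chromosome 12, 49127782 to 49131395, minus strand), had normalized counts of 12614, 15218 and 13418 with the scrambled hairpin and of 8441, 8098 and 8056 with the ABL1 hairpin. The knockdown mean was 59.6% of the scrambled mean (log2 change -0.74, SE 0.079, limma adjusted p = 6.85e-06). TUBB2B, a beta tubulin best known from the developing brain, had scrambled values of 2344, 2431 and 2180.5 and knockdown values of 1859, 1855 and 1914 (log2 change -0.30, SE 0.072, limma adjusted p = 0.00350), and its call ended with equal totals (-0.13, limma adjusted p = 0.133). TUBB1, the beta tubulin of platelets, had scrambled values of 35.02, 62.8 and 50.7 and knockdown values of 22.5, 31.6 and 36.1 and was not called (log2 change -0.69, SE 0.28, limma adjusted p = 0.0570), and it was called lower without scrambled replicate 1 (limma adjusted p = 0.0228) and without knockdown replicate 3 (0.0434). Within a library the ratio of TUBB4B to TUBA1B counts was 1.14 to 1.45 with the scrambled and 0.653 to 0.716 with the ABL1 hairpin. Tubulin genes are near copies of each other, so the split of reads between them depends on how the authors counted and is uncertain.

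Gamma tubulin, which nucleates microtubules at centrosomes, has 2 genes side by side on chromosome 17, 44045 bases apart on the plus strand. TUBG1, the form of most cells, had normalized counts of 1913, 1995 and 2001 with the scrambled hairpin and of 1456, 1354 and 1508 with the ABL1 hairpin. It fell (log2 change -0.45, SE 0.074, limma adjusted p = 0.000250) with the groups apart. TUBG2, the form best known from brain, had scrambled values of 554, 585 and 645 and knockdown values of 673, 637 and 707, and was not called (log2 change 0.18, SE 0.092, limma adjusted p = 0.121), whereas with equal totals it was called higher (0.35, limma adjusted p = 0.00636). The ratio of TUBG1 to TUBG2 counts was 3.11 to 3.45 with the scrambled and 2.12 to 2.16 with the ABL1 hairpin. Of the ring complex proteins that hold gamma tubulin, TUBGCP6 went from 1968 ± 17.4 to 1944 ± 155 normalized counts (log2 change -0.02, SE 0.077, limma adjusted p = 0.846), and TUBGCP3 and TUBGCP5, with few reads, were not called (-0.47 and 0.49). The gamma tubulin class had a median of -0.02, and 0.15 with equal totals.

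Of the 15 tested non-coding transcripts, pseudogenes and coding transcripts outside the roles above, a class set after it was seen which rows the pattern had caught, 6 rose and 0 fell by limma. At an unadjusted p under 0.05, and with voom, 1 was lower, the read-through RNA STAG3L5P-PVRIG2P-PILRB (log2 change -0.72, SE 0.29, limma adjusted p = 0.0501, or 0.0483 with voom and 0.0202 without knockdown replicate 1). KIF1BP, a kinesin-binding protein that inhibits motors, had scrambled values of 278, 251 and 266 and knockdown values of 488, 483 and 486 (log2 change 0.87, SE 0.097, limma adjusted p = 9.58e-06). AURKAPS1, a pseudogene of the Aurora A kinase gene, had scrambled values of 6.67, 8.97 and 16.9 and knockdown values of 39.1, 45.2 and 33.01 (log2 change 1.84, SE 0.36, limma adjusted p = 0.000930). The tubulin pseudogene TUBBP5 had scrambled values of 194, 193 and 194 and knockdown values of 340.4, 296 and 294 (log2 change 0.67, limma adjusted p = 0.000298). TUBA3FP, another, had scrambled values of 28.3, 24.7 and 12.2 and knockdown values of 43.04, 62.2 and 62.9 (log2 change 1.39, limma adjusted p = 0.00305). Reads of such pseudogenes can be confused with those of their parent genes, so these 3 are uncertain. CENPBD1, which carries a DNA-binding domain like that of CENPB, rose by 0.51 on the log2 scale (limma adjusted p = 0.00151). CKAP4, a membrane protein of the endoplasmic reticulum, rose by 0.23 (limma adjusted p = 0.0231), a call lost without scrambled replicates 2 (limma adjusted p = 0.0899) or 3 (0.0604) and without knockdown replicate 1 (0.108). CENPW, a kinetochore protein gene, was measured only through the non-coding transcript NR_104462, which had few reads and was not called (0.49).

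The 18 transcripts below the limit of 10 had means from 2.58 to 9.64 normalized counts. They include CKAP5, ECT2, CDCA3, CENPX, KIF4B, KIF9, NEK3, NEK4, TUBB6, TUBB8 and second rows of ANAPC7 and NEK2. In 2 of the 18 the groups did not overlap, both lower: TUBA3D had scrambled values of 9.17, 13.4 and 14.1 and knockdown values of 2.93, 2.26 and 6.19, and the NEK2 row NM_001204183 had scrambled values of 12.5, 7.85 and 3.75 and knockdown values of 0, 1.13 and 1.03. With no filter on low counts these 2 were called lower (limma adjusted p = 0.0186 for TUBA3D and 0.00873 for NM_001204183), which makes 39 falls in all. KIF4B is a near copy of KIF4A, so reads may be split between them. Differences in the others were not detectable at this depth.

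Some of the genes are neighbours in the genome. KIF20A and CDC23 lie on opposite strands of chromosome 5 and overlap by 74 bases at their 3′ ends (138187650 to 138187723). KIF20A fell and CDC23 rose, and the ratio of their counts was 1.24 to 1.52 with the scrambled and 0.654 to 0.760 with the ABL1 hairpin. No source used here says whether the counting used strand, so reads in the overlap cannot be assigned. CCNB1 and CENPH lie 11337 bases apart on the same chromosome and both fell, while CDK7, 24437 bases beyond CENPH, followed the uneven pattern given above. GTSE1 fell, and its divergent transcript GTSE1-DT, 209 bases away on the other strand, was not called and had few reads (scrambled values of 11.7, 6.72 and 12.2 and knockdown values of 15.7, 18.1 and 11.3).

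Genes of the same processes whose symbols the pattern does not catch were taken from lists drawn up by function. The lists were set with earlier results of these data known. Log2 changes are in parentheses. Over all tested transcripts 27.4% were lower and 24.5% higher. Only a part of each list was tested, such as 10 of 37 kinetochore and checkpoint genes and 17 of 39 tubulin folding and microtubule-binding genes. In the kinetochore and checkpoint list 6 of 10 tested fell and 0 rose by limma or voom, or at an unadjusted p under 0.05 (median -0.45), with 1 rise called without knockdown replicate 1 and with equal totals. TRIP13, the ATPase that takes the checkpoint complex apart, changed by -1.42, ERCC6L, a helicase of stretched centromeric DNA, by -1.35, and MIS18A, which helps to load the centromeric histone, by -0.79. SPC25, the partner of NDC80 in its complex, went from 112 ± 61.4 to 12.6 ± 9.69 normalized counts, with a wide spread (-3.07). Among cohesin regulators, separase and related genes 5 of 10 fell and 2 rose (median -0.39). They were led by ESPL1, the separase that cuts cohesin at anaphase (-1.42), PDS5A (-1.14), SMC5, of the SMC5/6 complex (-1.22), and RAD21, the cohesin subunit that separase cuts (-0.999). MAU2, a cohesin loader, and ESCO1, an acetyltransferase of cohesin, rose (0.28 and 0.36). Both rises were lost without the mean-variance trend, and only 1 was called without scrambled replicates 1 or 3 or knockdown replicates 2 or 3.

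Of 8 tested regulators of mitotic entry and exit 2 fell and 1 rose, or 25% and 12.5%, beside 27.4% and 24.5% of all tested transcripts. Their median was -0.14, and 0.034 with equal totals. UBE2S, which extends the ubiquitin chains that UBE2C starts, went from 7540 ± 842 to 2370.0 ± 195 normalized counts (-1.67), and the phosphatase subunit PPP2CA rose (0.42). The other fall was of CDC26, a small subunit of the anaphase-promoting complex (-0.43, overlapping groups), and 1 fall was called with equal totals and without scrambled replicate 3 or knockdown replicates 1 or 3. In the list of cytokinesis and spindle genes 8 of 12 fell and 2 rose (median -0.66). The spindle pole protein ASPM (-1.23), SPAG5 or astrin (-0.95), FAM83D (-0.91) and the guanine exchange factor ARHGEF39 (-1.08) fell, and the plus-end protein MAPRE1 (0.46) and TACC2 (1.06) rose, with 1 rise called without scrambled replicates 2 or 3 or knockdown replicates 1 or 3. In the list of tubulin folding and microtubule-binding genes 8 of 17 fell and 3 rose (median -0.23). MZT1, a small subunit of the gamma tubulin ring (-2.10), the tubulin tyrosine ligase TTL (-0.87), the glutamylase TTLL4 (-0.60) and MZT2A (-0.42) fell. The structural microtubule proteins MAP1A (2.34) and MAP1B (0.54) rose, MAP1A from 76.0 ± 9.38 to 391 ± 64.7 normalized counts, and so did MAP4 (0.92), whose groups overlapped.

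**Figure D4:**
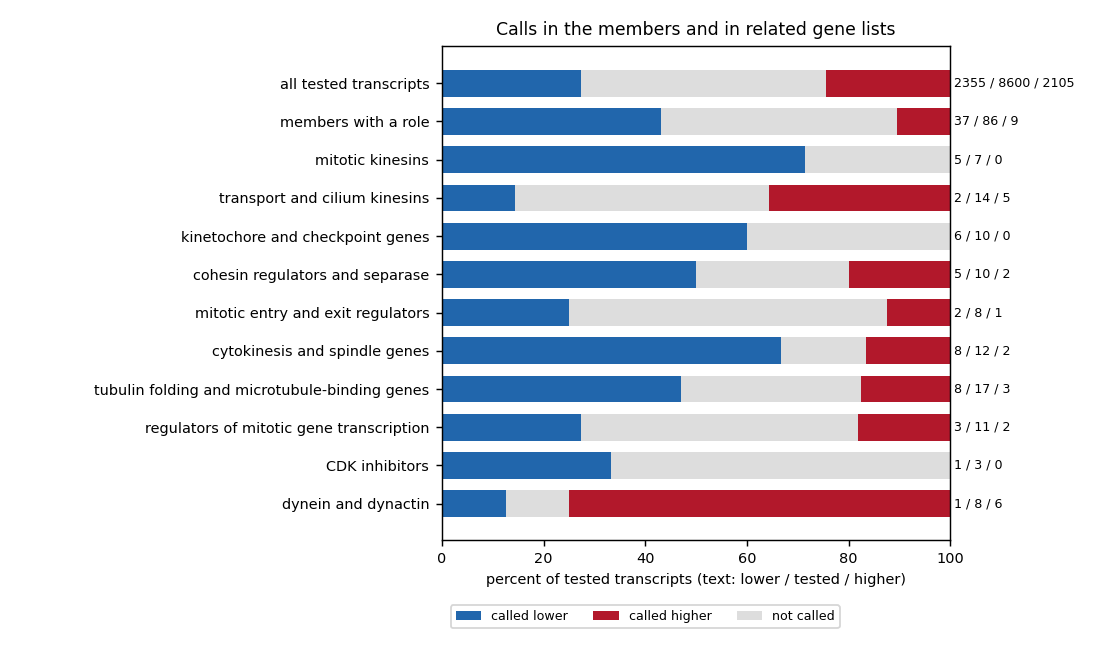
Percent of tested transcripts called lower (blue), called higher (red) and not called (grey) among all transcripts, among the coding members with a role and in related lists, with the numbers lower, tested and higher at the right. Against 27.4% lower and 24.5% higher over all transcripts, the coding members have 43% and 10.5%. Rows outside the roles were set aside after it was seen which the pattern had caught. The dynein and dynactin list, with 6 of 8 tested higher, is the one with the most red. The lists hold 8 to 39 genes, of which 3 to 17 were tested, so the shares are coarse and cover only the tested genes. With equal totals all transcripts have 19.6% lower and 34.6% higher.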

How the data were processed

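Total RNA was sequenced from 6 Huh7 libraries, 3 per group, each assigned by its title. The genome build was hg38 and the tools included HISAT2 2.0.4 and HTSeq 0.6.1, per the submitters' processing notes. No annotation, strand setting or row filter is stated there. The deposited table holds 1 signal value per RefSeq transcript and library. From the values, the authors' signal is a scaled square root: each squared value equals a library step times a whole number plus 0.375. Undoing this gave whole reads within 0.05 for 100% of rows, with 6651413 to 10487862 reads per library. Normalized counts are reads times each library's step over the geometric mean step, so that the authors' scaling is retained.

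Transcripts with a mean of at least 10 normalized counts (8600) were tested with limma 3.58.1 in R 4.3.3 (lmFit, eBayes with trend, two-sided) on log2(normalized count + 1), all 6 libraries and no covariate, with Benjamini-Hochberg adjustment and a threshold of 0.05. Means have their SD over n = 3. A median over a class or list is described beside that of all transcripts and was not tested. The limma step was tested on simulated reads, and the recovery of reads was not. Alternatives changed the pseudocount, filter, scaling, variance model, threshold, transcript summing, replicate block and library set. The members and gene lists were chosen with earlier results of these data known. In each class, up to 5 called members by smallest p, each called rise and up to 2 uncalled members of highest mean are given in full, with others added after their values were seen. From lists outside the pattern up to 4 calls per direction are named. Positions and promoters come from RefSeq (GRCh38.p14), transcript lengths from GENCODE.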

Additional observations from a re-analysis of the deposited data

How the results depend on the processing

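The counts of members lower and higher, 37 and 15, were 31 and 26 with equal totals, so that rises made up 45.6% of called members in place of 28.8%, and 36.7% with quantile normalization. Over all transcripts rises made up 47.2% of calls, and 63.8% with equal totals. Leaving out each library in turn gave 34 to 36 falls and 14 to 16 rises. No named member changed direction past the threshold in any alternative run. The replicate block gave 40 falls and 15 rises and ended no call of a member. In the lists outside the pattern it added 1 rise each to the kinetochore, cytokinesis and dynein lists and 1 fall each to the entry and exit and CDK inhibitor lists. Libraries with the same replicate number deviated together with correlations of 0.0471, 0.0765 and 0.0768. Those with different numbers had correlations from -0.1525 to 0.0886. A pairing by number is thus neither shown nor excluded. Of the 18 alternatives, median-of-ratios scaling, pseudocount 0.1 and no filter on low counts changed no call of the 101 members, and the stricter threshold of 0.01 ended 6. The kinesins had 10 rises with equal totals and 8 with quantile normalization, and 4 falls at the stricter threshold. Reads limit rows under 100 normalized counts most. With 3 libraries per group and a single line, hairpin and culture effects cannot be told apart.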

Other observations

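Regulators of mitotic gene transcription and the motor complex that works against the kinesins were also measured, from lists drawn up by function. These lists too were set with earlier results of these data known. They had tested rows for 11 of 25 regulators and 8 of 22 dynein and dynactin genes. Over all tested transcripts 27.4% were lower and 24.5% higher. Of 11 tested transcription regulators 3 fell and 2 rose, with a median log2 change of 0.016, or 0.19 with equal totals. E2F1 and E2F2, factors that switch on S-phase genes, changed by -1.13 (limma adjusted p = 1.42e-06) and -2.29 (limma adjusted p = 1.65e-07). E2F7, a repressor that is itself an E2F target, changed by -1.33 (limma adjusted p = 9.23e-05). RB1, the retinoblastoma protein that holds E2F factors in check, rose by 0.34 (limma adjusted p = 0.00535), and so did NFYB, a subunit of the factor that binds the CCAAT box (0.41, limma adjusted p = 0.0219), with 1 rise called without scrambled replicate 1 or knockdown replicate 2. LIN37 and E2F4, of the repressor complex that binds the CHR in resting cells, were not called (0.02 and 0.09). Among 3 tested CDK inhibitors CDKN1B fell (-0.37, limma adjusted p = 0.00241), a call that ended with equal totals, and CDKN2A and CDKN2C were not called. In all 2 of the 3 were called lower without scrambled replicate 2 or knockdown replicate 1.

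Dynein, the minus-end motor, and its activator dynactin gave 6 rises and 1 fall among 8 tested, with a median of 0.74, or 0.91 with equal totals. The heavy chain DYNC1H1 had scrambled values of 7251, 6654 and 6433 and knockdown values of 11534, 10614 and 13766 normalized counts (log2 change 0.81, SE 0.094, limma adjusted p = 1.36e-05). The light chain DYNLL2 (0.90) and the light intermediate chain DYNC1LI1 (0.67) rose with groups apart, and the cargo adaptor BICD2 fell (-1.82). Without knockdown replicate 2 the list had 3 rises.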
